A study of Mus musculus with 9 samples.

Results

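The amyloid precursor gene App, its paralogs Aplp1 and Aplp2, the secretase genes Adam10, Bace1, Psen2, Ncstn and Aph1a, and the prion protein gene Prnp were followed array by array in mouse brain. These 9 genes were chosen by name, with earlier results of these data known. All 9 were found among the 19938 genes that carry a single symbol on the Mouse Gene 1.0 ST array of Affymetrix. One probe set was read for each gene, and for Aph1a, the only gene of the 9 with 2 probe sets, the brighter was used. The 3 HPYD arrays came from APP/PS1 transgenic mice on a C57/6J background that received the peptide HPYD through the nose, at 33 mg/mL and 5 μL per day for 30 days. The 3 Model arrays came from APP/PS1 mice that were given saline by the same route, and the 3 Control arrays from wild type C57/6J mice, also given saline. At purchase the transgenic animals were 8 months old, and the controls were of the same age. Neither the labels nor the methods name the transgenic line or the promoter of its transgenes, and neither says that each array was a separate mouse, so the p-values measure the spread between arrays, which may be technical. RNA was taken from brain with no region named.

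The precursor protein spans the neuronal membrane and is cut along competing routes. The α-secretase ADAM10 cuts within the Aβ sequence and precludes its release, whereas the β-secretase BACE1 followed by the γ-secretase complex, made of a presenilin, nicastrin, an APH-1 protein and PEN-2, releases Aβ, the main component of amyloid plaques. APP/PS1 mice overproduce Aβ from their transgenes, and plaques form in these animals as they age. The prion protein is a membrane-anchored glycoprotein that is abundant in neurons and has been described as a receptor for Aβ oligomers, and the mouse Prnp promoter has been used to drive the transgenes of a widely used APP/PS1 line. The promoters of Prnp and App are shown because these genes had the widest gaps between the Model and Control arrays among the 9. The sequences are the 250 bases before the RefSeq start of each gene in GRCm38.p6, written 5′ to 3′ along the gene's own strand, with 3 motifs in capitals. The GC box was searched as GGGCGG, with CCGCCC on the opposite strand. The CCAAT box was searched by its own letters, with ATTGG on the opposite strand. The TATA box was searched as TATAAA, with TTTATA on the opposite strand.
Prnp, chr2:131909678-131909927, plus strand: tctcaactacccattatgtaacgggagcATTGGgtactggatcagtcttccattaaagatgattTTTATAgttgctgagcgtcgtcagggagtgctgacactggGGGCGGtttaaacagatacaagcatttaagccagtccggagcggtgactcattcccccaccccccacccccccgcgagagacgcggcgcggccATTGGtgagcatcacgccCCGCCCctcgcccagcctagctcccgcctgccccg
App, chr16:85173708-85173957, minus strand: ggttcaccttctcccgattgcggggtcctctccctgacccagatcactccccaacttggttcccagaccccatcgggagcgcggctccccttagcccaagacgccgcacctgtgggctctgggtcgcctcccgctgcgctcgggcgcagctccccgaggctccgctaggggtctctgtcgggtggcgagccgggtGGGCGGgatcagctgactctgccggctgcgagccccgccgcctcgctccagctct

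The Prnp window held 2 GC boxes, 2 CCAAT boxes and 1 TATA box, the last on the opposite strand, and its GC content was 58.8%. The App window held 1 GC box, 0 CCAAT boxes and 0 TATA boxes, at a GC content of 70.8%. No matches overlapped in these windows. Among all 32851 mouse promoters of this length in the table, 32.7% held a GC box, 33.8% a CCAAT box and 12.4% a TATA box on either strand, and the median GC content was 52.4%. RefSeq promoters were found for 8 of the 9 genes, with 2 for Psen2, and Bace1 was not matched. Of these 9 promoters, 7 held a GC box, 4 a CCAAT box and 1, that of Prnp, a TATA box. The matches describe the letters only.

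One array, HPYD 3, stood apart from the other transgenic arrays. Whether its label is wrong was not tested. Xist, the RNA of the inactive X chromosome, read 11.33 and 11.47 log2 in HPYD 1 and HPYD 2 and between 11.18 and 11.78 log2 in the Model arrays, but 5.22 log2 in HPYD 3, against 5.20 to 5.69 log2 in the Control arrays. Kdm5d, on the Y chromosome, read 7.84 log2 in HPYD 3, between 4.51 and 5.23 log2 in the other 5 transgenic arrays, and between 7.62 and 7.77 log2 in the Control arrays. Cst7, a gene of plaque-associated microglia, read 6.21 log2 in HPYD 3, 9.46 and 10.04 log2 in the other HPYD arrays, and between 8.14 and 9.75 log2 in the Model arrays, against 5.50 to 6.40 log2 in the Control arrays. Ccl6, from the same list, read 6.11 log2 in HPYD 3, below its lowest Control value of 6.42 log2. HPYD 3 therefore resembled the Control arrays in these 4 genes, but not in the whole list of plaque-associated microglia. Of the 9 genes in that list, 3 were above every Control array on HPYD 3 and 5 were below. Cd9 stood 0.81 log2 above the control mean on HPYD 3, and 0.52 to 0.72 log2 above it on the Model arrays. The differences of single genes below that involve HPYD arrays are given with HPYD 3 and without it. Apart from HPYD 3, all transgenic arrays had high Xist and all Control arrays had high Kdm5d, so genotype and sex cannot be told apart.

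HPYD 3 and Model 2 also shared a set of genes typical of the cerebellum. The median of 6 cerebellar granule cell genes lay 2.96 log2 above the control mean in HPYD 3 and 3.07 log2 above it in Model 2, whereas the other 4 transgenic arrays lay 0.02 to 0.69 log2 above it. All 6 of these genes were above every Control array in both HPYD 3 and Model 2. Medians of 10 neuronal genes lay between −0.17 and 0.04 log2 from the control mean on all arrays, but single genes of that list did not, and Camk2a, a kinase of forebrain excitatory neurons, stood at −0.98 log2 in HPYD 3 and −0.92 log2 in Model 2. Medians of 5 genes of striatal projection neurons were −1.46 and −1.10 log2 in HPYD 2 and HPYD 3 and −1.30 and −1.42 log2 in Model 1 and Model 2. Medians of 7 microglial genes were −0.71 log2 in HPYD 3 and −0.43 log2 in Model 2, and 0.20 to 0.29 log2 in the other 4 transgenic arrays. Array medians over all probe sets ranged between 6.69 and 6.82 log2. The 10 genes of skeletal muscle were raised in Model 2, Model 1 and HPYD 2, by medians of 3.92, 2.24 and 0.71 log2, and those of granulocytes in the same 3 arrays by 3.73, 3.38 and 2.78 log2. In bulk tissue, fewer cells of a type and less RNA per cell cannot be told apart.

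**Figure D1:**
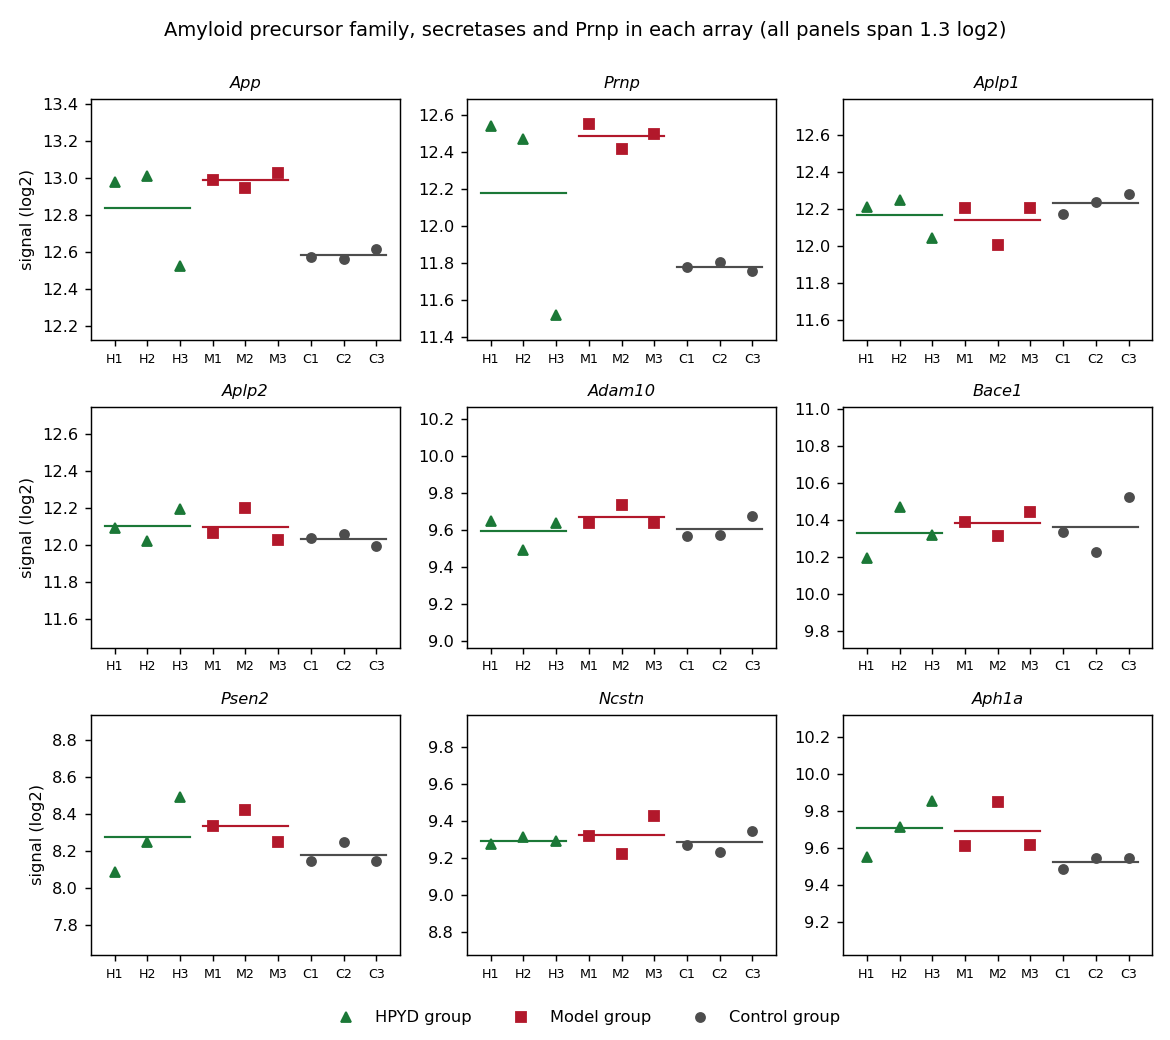
Log2 signal (vertical axis) of the 9 genes on each of the 9 arrays (horizontal axis: H, HPYD; M, Model; C, Control), with a horizontal line at each group's mean. App and Prnp were high on 5 of the 6 transgenic arrays and low on HPYD 3 and the Control arrays, while the other 7 genes spread over at most 0.41 log2 in all.

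App, the gene of the amyloid precursor itself, was higher in Model than in Control brains on every array, and the array labelled HPYD 3 did not share that level. Its log2 signal was 12.98, 13.01 and 12.53 on HPYD 1, 2 and 3, it was 12.99, 12.95 and 13.02 on the Model arrays, and it was 12.57, 12.56 and 12.62 on the Control arrays. HPYD 1 and HPYD 2 lay inside the Model range, and HPYD 3 lay 0.03 log2 below the lowest Control array. The Model mean of 12.99 ± 0.04 log2 stood against a Control mean of 12.58 ± 0.03 log2 (SD, n = 3 each), a difference of 0.40 (SE 0.12) or 1.32-fold, with a 95% confidence interval of 1.09 to 1.60-fold. In limma's fit over all 19938 genes this gave an unadjusted p of 0.00958 and an adjusted p of 0.859. The exact two-sided permutation test gave p = 0.1, the smallest that 3 arrays against 3 can give.

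For App, HPYD minus Model was −0.15 log2 (SE 0.12, 95% confidence interval −0.43 to 0.13) with all arrays and limma's adjusted p was 1. Without HPYD 3 it was 0.01 log2 (SE 0.06, interval −0.13 to 0.14), so the lower HPYD mean of 12.84 ± 0.27 log2, against 12.99 ± 0.04 log2 in Model, rested on that array. HPYD minus Control was 0.25 log2 (SE 0.12, limma adjusted p 0.860) with all arrays and 0.41 log2 (SE 0.06, adjusted p 0.203) without HPYD 3. Leaving out HPYD 3 also narrowed the spread that the groups share in the fit, and Model minus Control, at the same 0.40 log2, then had an SE of 0.05 and a limma adjusted p of 0.117. App thus missed the threshold of 0.05 in every one of these fits. Which part of the signal came from transgene RNA was not tested, since the probe sequences were not used here.

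Prnp, which encodes the prion protein, had the widest spread of the 9 genes, 1.03 log2, against 0.50 log2 for App. It read 12.54, 12.47 and 11.52 log2 on HPYD 1, 2 and 3. The Model arrays read 12.55, 12.42 and 12.50 log2, against 11.78, 11.81 and 11.76 log2 on the Control arrays. All Model arrays were above all Control arrays, by at least 0.61 log2, and HPYD 1 and HPYD 2 were within the Model range. HPYD 3 was the lowest of the 9 arrays, 0.24 log2 under the lowest Control array and 0.98 log2 under the mean of HPYD 1 and HPYD 2. The lower value of HPYD 3 was a step of 1.98-fold within one group, larger than the difference between Model and Control. Whether part of the Prnp signal came from transgene RNA was not tested either, since the probe sequences were not used.

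The Prnp mean was 12.49 ± 0.07 log2 in Model and 11.78 ± 0.02 log2 in Control (SD, n = 3 each). That difference of 0.71 log2 (SE 0.24), or 1.63-fold with a 95% confidence interval of 1.12 to 2.38-fold, had an unadjusted p of 0.0170 and an adjusted p of 0.859 in limma's fit with all arrays. Without HPYD 3 its SE was 0.06, its interval 1.49 to 1.79-fold and its limma adjusted p 0.0127, so Prnp then passed the threshold. The difference itself was unchanged, and the SE fell because the low Prnp value of HPYD 3 left the shared spread. That value was known when the array was left out, so the pass is not independent of it. The exact permutation test again gave its smallest possible p of 0.1. HPYD minus Model was −0.31 log2 (SE 0.24, interval −0.86 to 0.23, limma adjusted p 1) with all arrays. Without HPYD 3 the same difference was 0.02 log2 (SE 0.06, interval −0.13 to 0.17). HPYD minus Control was 0.40 log2 (SE 0.24, limma adjusted p 0.860) with all arrays and 0.72 log2 (SE 0.06, adjusted p 0.0232) without HPYD 3. Leaving out that array, the lowest of all in Prnp, raised the HPYD mean as well. HPYD 1 and HPYD 2 therefore read Prnp at the level of the Model arrays, to within an interval of about 0.91 to 1.12-fold.

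These counts stand against the background of all genes. The 9 genes were chosen with earlier results of these data known, so the counts describe them and are no test of the set. With all arrays, none of the 9 genes passed an adjusted p of 0.05 in limma, as did 0% of the 19938 genes in Model against Control, 0% in HPYD against Model and 0% in HPYD against Control. At an unadjusted p under 0.05, 2 of the 9, App and Prnp, were higher in Model than in Control, where 2.87% of all genes were. In HPYD against Model 0 of the 9 had such a p, beside 1.97% of all genes in either direction, and in HPYD against Control 0 of the 9, beside 3.24%. Without HPYD 3, 1 of the 9, Prnp, passed the adjusted threshold in Model against Control, beside 0.0351% of all genes, 0 of 9 passed in HPYD against Model, beside 0%, and 1, Prnp again, passed in HPYD against Control, beside 0.0401%. The unadjusted count in Model against Control stayed at 2 of 9 without HPYD 3, beside 3.05% of all genes. The 2 comparisons with the Control arrays share those arrays and are not independent.

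The same reading by overlap gave 3 of the 9 genes, App, Prnp and Aph1a, with every Model array above every Control array, which 4.83% of all genes showed. No gene of the 9 separated HPYD from Model in either direction, beside 3.22% of all genes, and without HPYD 3 there was 1, Aplp1, with a gap of 0.0038 log2, beside 8.03% of all genes. In HPYD against Control, 1, Aph1a, had all HPYD arrays above all Control arrays, beside 4.78%. Without HPYD 3 this count was 3 of 9, App, Prnp and Aph1a, beside 7.32% of all genes. The median difference of the 9 genes was 0.07 log2 in Model against Control, where the median of all genes was −0.01. In HPYD against Model it was −0.05 log2, where that of all genes was 0.02, and in HPYD against Control it was 0.07 log2, where that of all genes was 0.01.

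**Figure D2:**
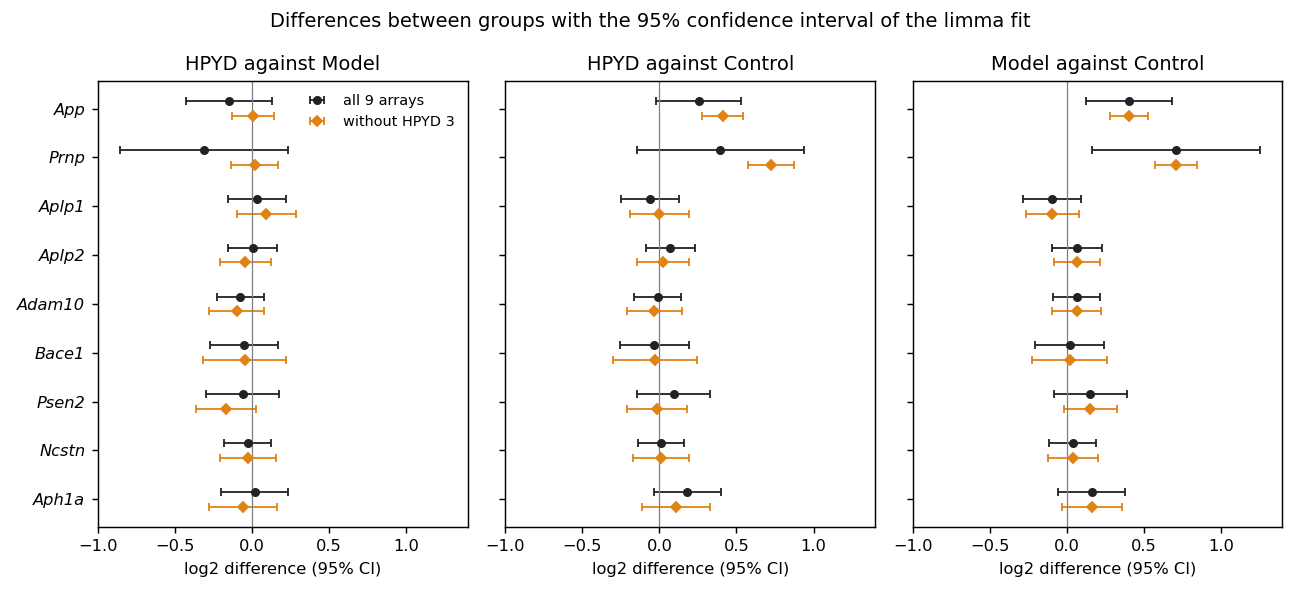
Log2 differences (horizontal axes) of the 9 genes in HPYD against Model, HPYD against Control and Model against Control from limma's fit, with 95% confidence intervals, for all 9 arrays (circles) and without HPYD 3 (diamonds). The interval of Prnp in HPYD against Model ran over −0.86 to 0.23 with all arrays and over −0.13 to 0.17 without HPYD 3.

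The paralogs of App did not follow it. Aplp1, a neuronal relative of the precursor that lacks the Aβ sequence, read 12.21, 12.25 and 12.04 log2 on the HPYD arrays, 12.20, 12.003 and 12.20 log2 on the Model arrays, and 12.17, 12.24 and 12.28 log2 on the Control arrays. The groups overlapped, and the lowest readings were those of Model 2 and HPYD 3. Model minus Control was −0.09 log2 (SE 0.08) and HPYD minus Model 0.03 log2 (SE 0.08), with adjusted p values from limma of 0.859 and 1. Without HPYD 3, HPYD minus Model was 0.09 log2 (SE 0.08, interval −0.10 to 0.28), and HPYD 1 and HPYD 2 then lay just above all Model arrays.

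Aplp2, the widely expressed paralog, read 12.09, 12.02 and 12.20 log2 on the HPYD arrays. It read 12.07, 12.20 and 12.03 log2 on the Model arrays, against 12.04, 12.06 and 11.99 log2 on the Control arrays. The groups overlapped here too, and the highest readings were again those of Model 2 and HPYD 3. Aplp2 differed between Model and Control by 0.07 log2 (SE 0.07), with an interval of −0.09 to 0.23, and HPYD minus Model was 0.0044 log2 (SE 0.07), with an interval of −0.16 to 0.16. Without HPYD 3 the second difference was −0.04 log2 (SE 0.07).

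Adam10, the main α-secretase of neurons, had overlapping groups. Its log2 signal was 9.65, 9.49 and 9.64 on the HPYD arrays, 9.64, 9.74 and 9.64 on the Model arrays, and 9.57, 9.57 and 9.67 on the Control arrays. HPYD 2 was lowest and Model 2 highest, and HPYD 3, Model 1 and Model 3 held the identical value in the deposited table. Model minus Control was 0.07 log2 (SE 0.07, interval −0.09 to 0.22). HPYD minus Model was −0.08 log2 (SE 0.07, interval −0.23 to 0.08) with all arrays and −0.10 log2 (SE 0.08) without HPYD 3.

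Bace1, the β-secretase that makes the first cut towards Aβ, read 10.20, 10.47 and 10.32 log2 on the HPYD arrays. It read 10.39, 10.32 and 10.44 log2 on the Model arrays, and 10.34, 10.23 and 10.53 log2 on the Control arrays. The Control arrays alone spanned nearly the whole range, and the groups overlapped in every comparison. Bace1 differed between Model and Control by 0.02 log2 (SE 0.10), with an interval of −0.20 to 0.24, and HPYD minus Model was −0.05 log2 (SE 0.10), with an interval of −0.28 to 0.17 with all arrays and of −0.32 to 0.22 without HPYD 3. On the linear scale, the interval of Model against Control was 0.868 to 1.18-fold. It is not a detection limit, since App at 1.32-fold and Prnp at 1.63-fold also missed the adjusted threshold with all arrays.

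Of the γ-secretase genes, Psen2 encodes presenilin 2, a catalytic subunit of the complex. It read 8.08, 8.25 and 8.49 log2 on the HPYD arrays, 8.33, 8.42 and 8.25 log2 on the Model arrays, and 8.14, 8.25 and 8.15 log2 on the Control arrays. Its HPYD arrays spread over the full range of 0.41 log2, and a single Control array met the Model range. Between Model and Control, Psen2 differed by 0.15 log2 (SE 0.10, interval −0.08 to 0.39). HPYD minus Model was −0.06 log2 (SE 0.10) with all arrays and −0.17 log2 (SE 0.08, unadjusted p 0.0805, adjusted p 1 in limma) without HPYD 3. Its size thus depended on that array.

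Ncstn encodes nicastrin, the large glycoprotein subunit of γ-secretase. It read 9.27, 9.31 and 9.29 log2 on the HPYD arrays, 9.32, 9.22 and 9.42 log2 on the Model arrays, and 9.27, 9.23 and 9.35 log2 on the Control arrays. Both other ranges enclosed the HPYD arrays. Model minus Control was 0.04 log2 (SE 0.07, interval −0.11 to 0.19), and HPYD minus Model was −0.03 log2 with all arrays and without HPYD 3 (SE 0.07 and 0.08).

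Aph1a, which encodes the scaffold subunit on which the complex assembles, was the gene after App and Prnp whose Model and Control arrays did not overlap. Its log2 signal was 9.55, 9.71 and 9.85 on the HPYD arrays, 9.61, 9.85 and 9.61 on the Model arrays, and 9.49, 9.55 and 9.55 on the Control arrays. The gap between Model and Control was 0.06 log2, that between HPYD and Control 0.01 log2, and the highest arrays were HPYD 3 and Model 2. The second Aph1a probe set had the same pattern, with 9.45, 9.57 and 9.74 log2 on the HPYD arrays, 9.49, 9.74 and 9.49 log2 on the Model arrays and 9.36, 9.41 and 9.42 log2 on the Control arrays. Between Model and Control, Aph1a differed by 0.16 log2 (SE 0.09, unadjusted p 0.122, adjusted p 0.859 in limma). HPYD minus Control was 0.18 log2 (SE 0.09) with all arrays and 0.11 log2 (SE 0.09) without HPYD 3. HPYD minus Model was 0.02 log2 (SE 0.09) with all arrays and −0.06 log2 (SE 0.09) without HPYD 3.

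For the remaining genes, HPYD minus Control was −0.06 log2 for Aplp1, 0.07 for Aplp2, −0.01 for Adam10, −0.03 for Bace1, 0.09 for Psen2 and 0.01 for Ncstn, with SEs of 0.07 to 0.10 and adjusted p values from limma of 0.860 to 0.977. Without HPYD 3 these differences lay between −0.03 log2 for Adam10 and 0.02 log2 for Aplp2, and that of Psen2 was −0.01 log2.

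Aplp1, Aplp2, Psen2 and Aph1a thus shared a pattern that cut across the groups. In Aplp1 the arrays Model 2 and HPYD 3 were the 2 lowest of 9, and in Aplp2, Psen2 and Aph1a they were the 2 highest. Among all genes, 28.3% had these arrays as the 2 highest or the 2 lowest, beside 4 of the 9 genes here, so the pattern was common on the array. The cerebellar granule cell genes were high on the same arrays, as given above, and whether they caused the pattern was not tested. The fits that follow were chosen after seeing the data and describe the values only. With Model 2 and HPYD 3 left out together, Model minus Control was −0.03 log2 (SE 0.06) for Aplp1, 0.02 log2 (SE 0.06) for Aplp2, 0.11 log2 (SE 0.08) for Psen2 and 0.08 log2 (SE 0.07) for Aph1a. With the cerebellar granule level as a covariate and all arrays kept, these differences were 0.0012 log2 (SE 0.06) for Aplp1, −0.0034 log2 (SE 0.06) for Aplp2, 0.03 log2 (SE 0.07) for Psen2 and 0.04 log2 (SE 0.06) for Aph1a. For App and Prnp, which did not have this pattern, Model minus Control without Model 2 and HPYD 3 was 0.42 log2 (SE 0.05, limma adjusted p 0.118) for App and 0.74 log2 (SE 0.06, adjusted p 0.0196) for Prnp, and with the covariate it was 0.54 log2 (SE 0.10, adjusted p 0.410) for App and 0.98 log2 (SE 0.18, adjusted p 0.410) for Prnp. These covariate values were above those of every single Model array. The highest Model arrays stood 0.44 log2 for App and 0.77 log2 for Prnp over the control mean. HPYD 3, the array that stood apart, entered the covariate fit with a granule level of 2.96 log2 and Prnp at −0.26 log2. How far it set the covariate values was not tested.

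**Figure D3:**
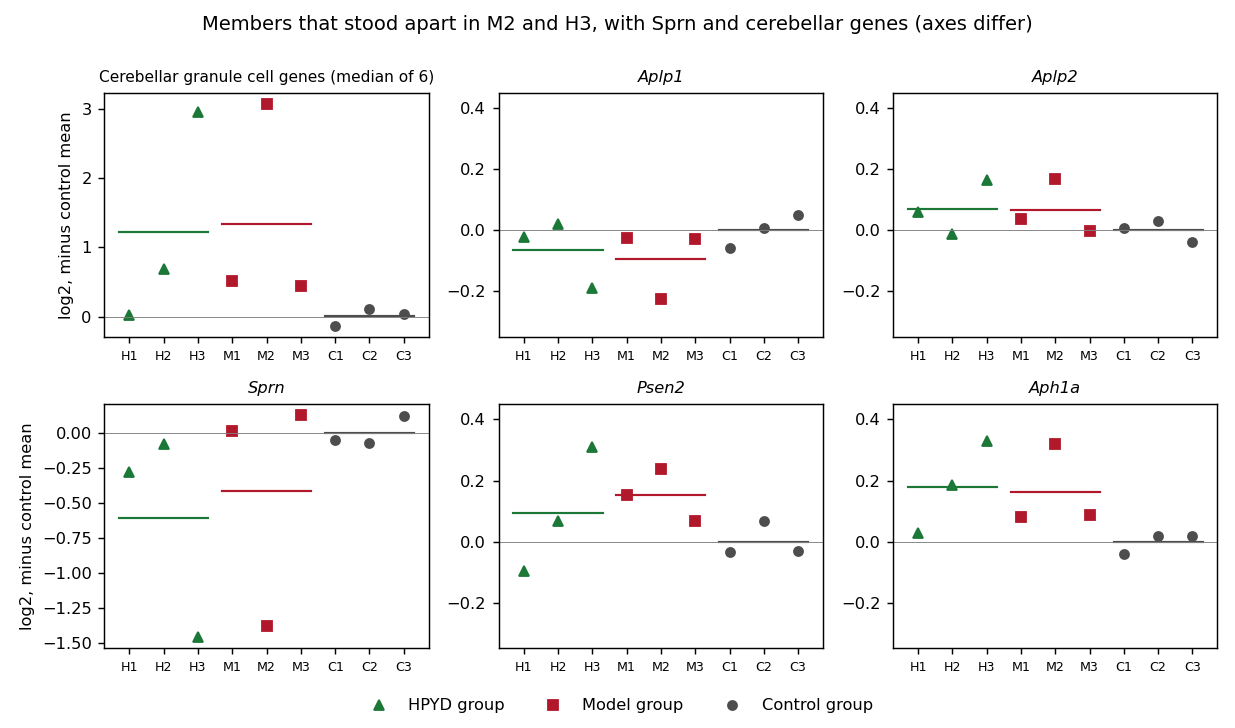
Log2 signal minus the control mean (vertical axes, which differ between panels) on each array for the median of 6 cerebellar granule cell genes, for Aplp1, Aplp2, Psen2 and Aph1a, and for Sprn, with lines at the group means. Model 2 and HPYD 3 were the 2 highest or the 2 lowest arrays in all 6 panels, at 3.07 and 2.96 log2 in the cerebellar genes.

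None of the other genes of precursor processing passed the adjusted threshold. Of 38 listed genes, 34 were measured, among them other secretases, tetraspanins and inhibitors of Adam10, cytoplasmic adaptors of App, sorting factors, modulators of γ-secretase and the prion relative Sprn. In each of the 3 comparisons 0 of the 34 passed the adjusted threshold in limma. At an unadjusted p under 0.05 there were 0 of 34 in Model against Control, beside 4.92% of all genes in either direction, 0 in HPYD against Model, beside 1.97%, and 1 in HPYD against Control, beside 3.24%. That gene was Tspan33, a tetraspanin that guides Adam10 to the membrane, at −0.13 log2 (SE 0.05, unadjusted p 0.0420, adjusted p 0.860) with all arrays and −0.11 log2 (SE 0.06, unadjusted p 0.111) without HPYD 3. Without HPYD 3 the adjusted count was 0 in each comparison, and the unadjusted count was 1, Gsap, in Model against Control, beside 5.17% of all genes, and 0 in the comparisons with HPYD, beside 1.33% against Model and 2.26% against Control. The median over the 34 genes was −0.02 log2 in both Model against Control and HPYD against Model and −0.01 log2 in HPYD against Control.

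Among these lists the smallest p in Model against Control was that of Gsap. Gsap, named for the γ-secretase activating protein, read 6.56, 6.66 and 7.04 log2 on the HPYD arrays, 6.66, 7.55 and 6.76 log2 on the Model arrays, and 6.49, 6.40 and 6.53 log2 on the Control arrays. Every Model array was above every Control array, which held for 2 of the 34 listed genes, beside 4.83% of all genes. The highest Gsap readings were those of Model 2 and HPYD 3. Model minus Control was 0.52 log2 (SE 0.23, unadjusted p 0.0513, adjusted p 0.859 in limma), or 1.44-fold, and without HPYD 3 its unadjusted p was 0.0479 and its adjusted p 0.783. Adam17, an inducible α-secretase that also sheds tumour necrosis factor, averaged 8.05 ± 0.19 log2 in Model and 7.84 ± 0.05 log2 in Control (SD, n = 3 each), a difference of 0.21 log2 (unadjusted p 0.0530). Its Model 2 array stood at 8.27 log2, whereas Model 1 and Model 3 both read 7.94 log2. On the lower side were Rtn4, the reticulon known as Nogo, at −0.19 log2 (unadjusted p 0.0855), and Tspan33 at −0.10 log2 (unadjusted p 0.0960).

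Between HPYD and Model, the extracellular metalloprotease inhibitor Timp3 had the smallest p. It read 11.04, 11.12 and 11.09 log2 on the HPYD arrays, against 10.95, 10.95 and 10.63 log2 on the Model arrays and 10.86, 11.01 and 10.71 log2 on the Control arrays. Every HPYD array, HPYD 3 included, was above every Model and every Control array. Of the 34 listed genes, 1 had no overlap between HPYD and Model, beside 3.22% of all genes in either direction. All HPYD arrays were above all Control arrays in 5 of the 34, beside 4.78% of all genes. The difference from Model was 0.24 log2 (SE 0.11, interval −0.0027 to 0.49), with an unadjusted p of 0.0521 and an adjusted p of 1 in limma, and that from Control was 0.22 log2 (unadjusted p 0.0693). Without HPYD 3 these differences were 0.24 log2 (SE 0.13, unadjusted p 0.1002) and 0.22 log2 (SE 0.13, unadjusted p 0.126). The App adaptor Apbb2 was next, at 0.11 log2 (unadjusted p 0.165), and the retromer subunits Vps26a and Vps35, which return sorted cargo from endosomes, each had −0.12 log2 (unadjusted p 0.182 and 0.272). Without HPYD 3 these values were 0.10 log2 for Apbb2, −0.05 log2 for Vps26a and −0.04 log2 for Vps35. In HPYD against Control the remaining genes with the smallest p were Itm2b, whose protein inhibits precursor processing, at 0.16 log2 (unadjusted p 0.112), and the adaptor Apba2 at −0.20 log2 (unadjusted p 0.103). Without HPYD 3 they were 0.09 log2 for Itm2b and −0.09 log2 for Apba2.

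Sprn, which encodes the prion family protein shadoo, was measured as the one relative of Prnp, and its levels did not follow those of Prnp. It read 10.04, 10.24 and 8.85 log2 on the HPYD arrays, 10.33, 8.94 and 10.44 log2 on the Model arrays, and 10.26, 10.24 and 10.44 log2 on the Control arrays. HPYD 3 and Model 2 were more than 1 log2 below all other arrays, the arrays with the high cerebellar genes. HPYD minus Model was −0.19 log2 (SE 0.46) with all arrays and 0.23 log2 (SE 0.41) without HPYD 3, and Model minus Control was −0.41 log2 (SE 0.46), with adjusted p values from limma of 1, 1 and 0.883. Prnp shared the low reading of HPYD 3 with Sprn but read 12.42 log2 on Model 2, well above the Control arrays.

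**Figure D4:**
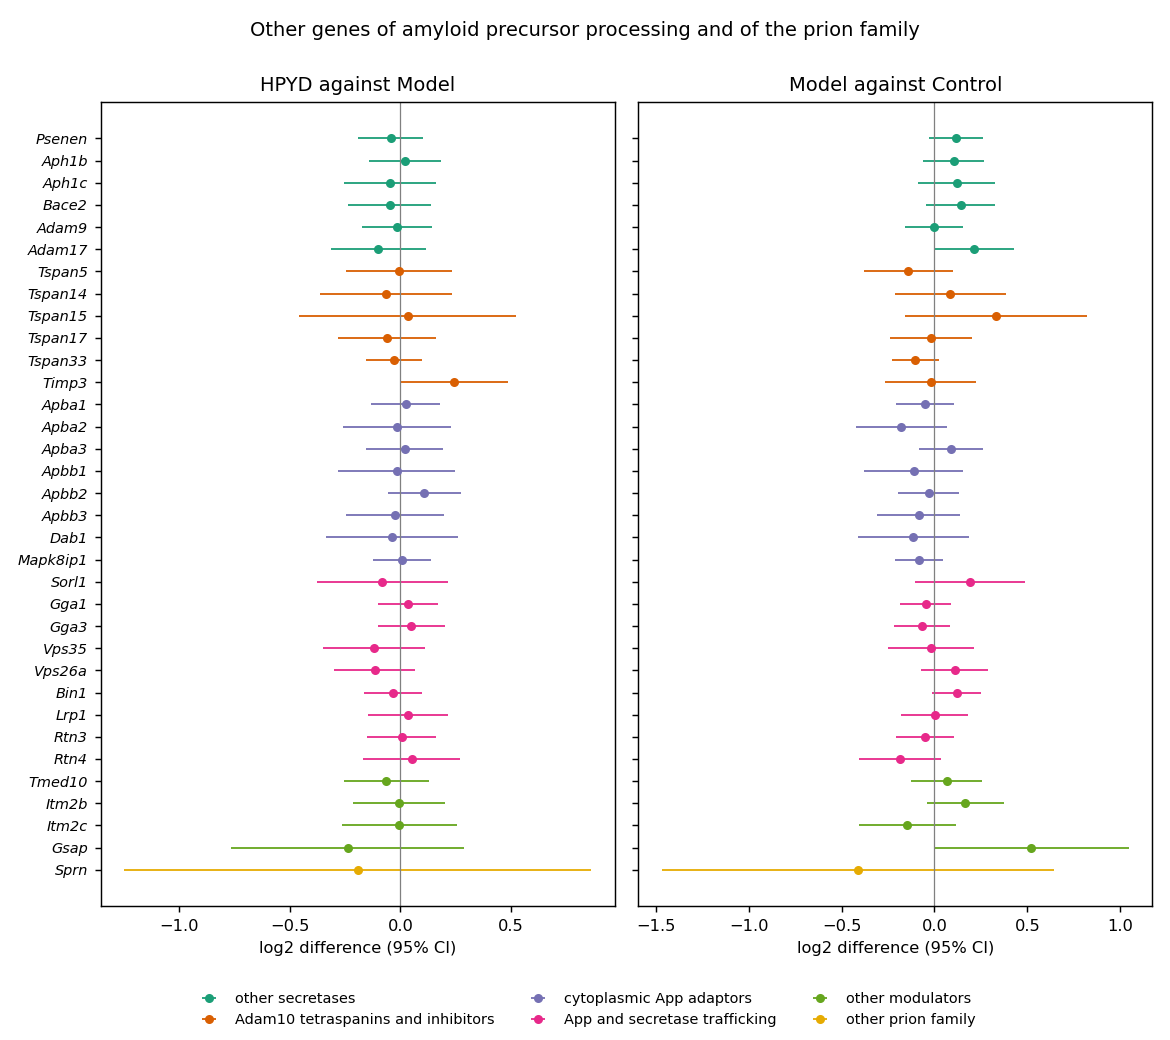
Log2 differences (horizontal axes) with 95% confidence intervals of 34 other genes of precursor processing and the prion family in HPYD against Model and in Model against Control, coloured by list. Sprn had the widest interval, and the largest positive difference was that of Gsap in Model against Control, 0.52 log2.

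The genes whose profiles lay nearest to those of App and Prnp were found by the root-mean-square difference of log2 signal over the 9 arrays, after each gene was centred on its control mean. Nearest to App were Gusb, a lysosomal glucuronidase, at 0.09 log2, then H2-Ob at 0.11 log2 and Hcls1, Ms4a6d and B2m, the light chain of class I major histocompatibility molecules, each at 0.11 or 0.12 log2. Nearest to Prnp were Cd84 at 0.12 log2, the Fc receptor gene Fcgr2b at 0.13 log2, Irf8, a transcription factor of microglia, at 0.14 log2, Fcgr1 at 0.16 log2 and Naip2 at 0.16 log2. App and Prnp themselves were 0.24 log2 apart, and the other 7 genes were 0.25 to 0.35 log2 from App and 0.48 to 0.58 log2 from Prnp. The median of 9 genes of plaque-associated microglia lay 1.27, 1.24 and −0.15 log2 from the control mean on HPYD 1, 2 and 3 and 0.88, 0.71 and 1.15 log2 above it on the Model arrays. On HPYD 1, HPYD 2 and each Model array all 9 of these genes were above every Control array, and on HPYD 3 only 3 were. The part of these cells in the levels of App and Prnp was not tested.

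**Figure D5:**
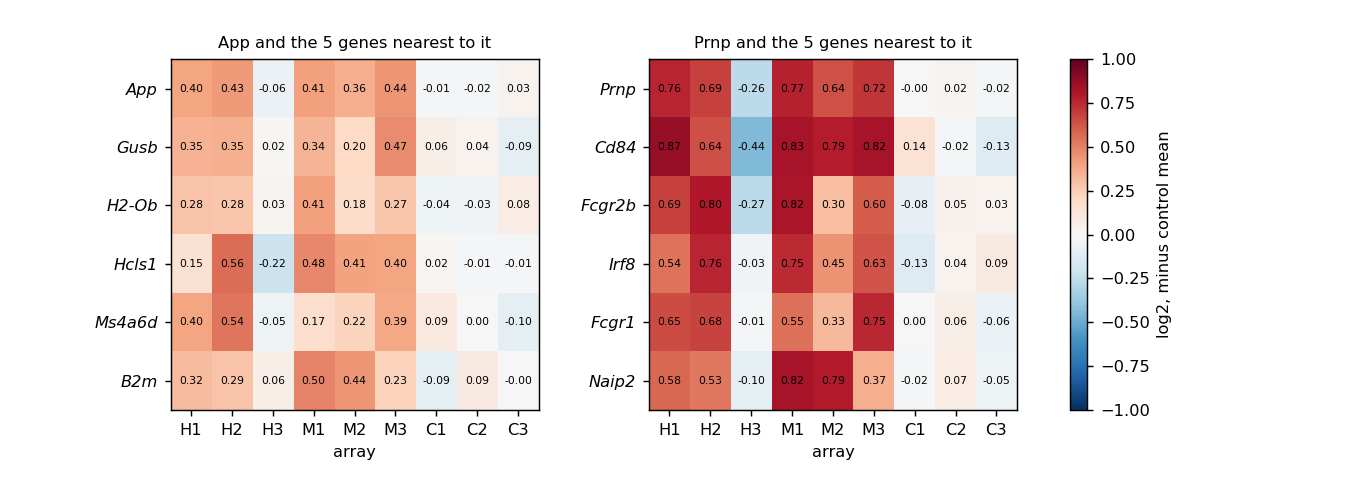
Log2 signal minus the control mean (colour and printed values) for App and Prnp and the 5 genes nearest to each, on the HPYD (H), Model (M) and Control (C) arrays. Rows of Prnp and its neighbours were high on HPYD 1, HPYD 2 and the Model arrays and at or below the control mean on HPYD 3.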

How the data were processed

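Total RNA of brain was hybridised by the authors to GeneChip Mouse Gene 1.0 ST arrays, 3 per group, with groups taken from the sample labels. The table deposited by the authors holds log2 signals of 35556 probe sets on 9 arrays, ranging between 2.37 and 14.01. MAS5 is named in the processing notes of the submitters, no source used here states the normalization, and the values were used as deposited, with 0 columns left out. Of all probe sets, 14661 (41.2%) held an equal value on 2 or more arrays. Symbols came from the platform annotation, 21789 probe sets had 1 symbol, 1621 several and 12146 none, and each of the 19938 genes was read from its probe set of highest mean. Entrez identifiers of 21698 probe sets matched RefSeq.

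The groups were fitted together in R 4.3.3 with limma 3.58.1, with no covariate (6 residual and 2.13 prior degrees of freedom) and the Benjamini-Hochberg adjustment over all genes, and single genes were compared by exact two-sided permutation tests. The fit was tested on simulated data. Alternatives were other normalizations, a filter on the dimmest genes (33.3%), other variance models, array weights, other probe set rules, only the arrays compared, the one-way analysis of variance of the methods, a replicate block and leaving out arrays. The fits without both Model 2 and HPYD 3 and with the cerebellar level as a covariate were chosen after seeing the data. HPYD 3 was singled out with its values, those of App and Prnp among them, already known. The genes and lists were chosen with earlier results of these data known. The genes named were the 9, for each comparison the listed genes past the test or otherwise of smallest p, 2 per direction, the 5 nearest to App and to Prnp, and 4 label checks. Sprn was described after its values were seen. Promoter sequences were from RefSeq (GRCm38.p6). The number of arrays limits the precision. Some listed genes are not reported here.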

Additional observations from a re-analysis of the deposited data

How the results depend on the processing

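The differences of the 9 genes in the 3 comparisons were recomputed under 20 alternatives. Of 540 values, 502 kept their direction and their side of the threshold, 4 newly passed it, 0 lost it and 34 changed sign. Of those 34, 2 belonged to App and Prnp, both in HPYD against Model without HPYD 3. None of the 9 genes passed in the fit with all arrays, so none could lose the threshold. Alternatives that change only the estimate of spread, such as trended and robust variance, could not change a sign. Neither could leaving out an array outside the comparison, so the 502 do not measure robustness. Genes were called only where HPYD 3 was left out or took no part in the fit. Over single arrays left out, the genes called in Model against Control numbered 0 to 7 and in HPYD against Control 0 to 8, and of the 9 genes 0 to 1 in each, the higher counts in each case without HPYD 3. With only the 6 arrays compared, 5 genes were called in Model against Control. Without both Model 2 and HPYD 3 there were 15 in Model against Control and 18 in HPYD against Control, with 1 of the 9 genes, Prnp, in each, at 0.74 and 0.72 log2. For Prnp, leaving out 1 array gave 0.68 to 0.74 log2 in Model against Control, −0.49 to 0.016 in HPYD against Model and 0.21 to 0.72 in HPYD against Control, and for App in HPYD against Model −0.23 to 0.0064. Across the alternatives, the lowest limma adjusted p for Model against Control was 0.117 for App and 0.0127 for Prnp, both without HPYD 3. With all arrays it was 0.859 for both genes.

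At an unadjusted p under 0.05, the methods' one-way analysis of variance called 0 of the 9 genes in Model against Control, beside 1.44% of all genes (App p 0.0531, Prnp p 0.101, both 0.932 after Benjamini-Hochberg). In HPYD against Control the count was 1 with quantile normalization, beside 3.35% of all genes, and 3 with array weights, beside 6.9%. It was 2 without Model 2 and HPYD 3, beside 3.82%, 2 with the cerebellar covariate, beside 2.85%, and 0 to 2 without single arrays, beside 1.71% to 9.06%. Among the 34 listed genes, Model against Control gave 1 with arrays shifted to the same median, beside 5.5% of all genes, and 6 with array weights. It gave 1 by analysis of variance, beside 1.44%, 2 without Model 2 and HPYD 3, beside 3.75%, 1 with the covariate, beside 4.73%, and 0 to 4 without single arrays, beside 2.18% to 9.67%. HPYD against Model gave 1 with the same median, array weights or trended and robust variance, 2 with the covariate and 0 to 1 without single arrays, and HPYD against Control gave 0 with quantile normalization, trended and robust variance, the covariate or without Model 2 and HPYD 3, and 0 to 2 without single arrays. Over all genes, the share at that p across the alternatives was 1.44% to 9.67% in Model against Control, 0.687% to 6.3% in HPYD against Model and 1.21% to 9.06% in HPYD against Control. The 6 listed genes with array weights, 17.6% of 34, stood beside 8.7% of all genes under the same weights.

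The sign changes were of small values. With the covariate, Aplp1 was 0.0012 in Model against Control and 0.022 in HPYD against Control, Aplp2 −0.0034 in Model against Control and Psen2 −0.019 in HPYD against Control. With the same median, Aplp2 was −0.0019 in HPYD against Model, Bace1 −0.026 and Ncstn −0.0053 in Model against Control, and Ncstn −0.041 in HPYD against Control. Adam10 was 0.0087 with quantile normalization and Bace1 0.023 with array weights in HPYD against Control, and Psen2 −0.014 there without Model 2 and HPYD 3. Leaving out single arrays gave, in HPYD against Model, −0.038 to 0.092 for Aplp1, −0.043 to 0.055 for Aplp2, −0.12 to 0.014 for Bace1, −0.17 to 0.035 for Psen2, −0.078 to 0.022 for Ncstn and −0.057 to 0.095 for Aph1a. In HPYD against Control it gave −0.041 to 0.038 for Adam10, −0.10 to 0.047 for Bace1, −0.014 to 0.19 for Psen2 and −0.016 to 0.042 for Ncstn, and in Model against Control −0.049 to 0.10 for Bace1 and −0.012 to 0.089 for Ncstn. The cause of these changes was not tested.

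Of 9 correlations between same-numbered arrays, 2 were over 0.1, in a range of −0.32 to 0.18. Differently numbered arrays were not compared, so these values cannot exclude a pairing by number. With the replicate block, 0 genes were called in each comparison, 2 of the 9 had an unadjusted p under 0.05 in Model against Control, and 1 of the 34 listed genes did in HPYD against Model, where none did without it. The 3 arrays per group, an unstated normalization, values repeated between arrays and 1 array unlike its group limit what can be read here.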
